A study of Mus musculus with 37 samples.

Results

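The genes described here are the replication-dependent histone genes of the mouse, which encode the linker histone H1 and the core histones H2A, H2B, H3 and H4 that package newly copied DNA. They were chosen by name, as every gene of the count table whose symbol begins with Hist1h, Hist2h, Hist3h or Hist4h, which gave 67 of 35542 genes. The tailbuds of single C57BL/6/Cast F1 embryos at E8-8.5, cut below the last somite, were sequenced to ask how loss of maternal SMCHD1 alters gene expression while the tailbud lays down the body axis. SMCHD1 is a chromosomal protein needed to keep certain genes silent. The 21 Smchd1wt embryos (genotype Smchd1[fl/+]) carried a floxed but intact maternal allele. The 16 Smchd1matΔ embryos (Smchd1[del/+], matdel in the labels) came from Smchd1 del/fl mothers in which the MMTV-Cre transgene had deleted the gene in the oocyte, so they lacked the protein laid down in the oocyte as well as a working maternal allele, while the paternal allele from a Castaneus father was intact in both genotypes. With 6, 7, 8, 9, 10 and 11 somites there were 4, 4, 3, 3, 4 and 3 Smchd1wt embryos and 4, 3, 2, 2, 3 and 2 Smchd1matΔ embryos. All embryos at 6 somites were female. At 8 and 9 somites all Smchd1matΔ embryos were female, while the Smchd1wt embryos were of both sexes. At 7, 10 and 11 somites both genotypes had both sexes. In all, 13 Smchd1wt embryos were female and 8 male, and 11 Smchd1matΔ embryos were female and 5 male.

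Replication-dependent histone messages are made in S phase and are the known exception among messenger RNAs, because they normally end in a short stem-loop and not in a poly(A) tail. The stem-loop is bound by SLBP, and U7 snRNP with the endonuclease CPSF3 cuts the transcript a few bases after it. A minority of histone genes can also end at a poly(A) signal further downstream, and these forms are known from cells that have stopped dividing or are differentiating. Poly(A) selection is meant to keep tailed molecules, so the values below are levels in poly(A) libraries and not total histone messenger RNA. In bulk tissue, fewer cells with a message and less message per cell cannot be told apart.

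The annotation of the genes showed both kinds of end. All 67 were protein-coding, with coordinates in the deposited table that were identical to GENCODE M21 on GRCm38. Of these, 54 lie in the Hist1 cluster on chromosome 13, 10 in Hist2 on chromosome 3, 2 in Hist3 on chromosome 11 and 1, Hist4h4, on chromosome 6. A histone stem-loop, with stem arms of 6 bases and a loop of 4 bases, was found on the sense strand in an annotated transcript of 46 genes, always in the 3′ UTR. In other genes with a transcript the same search matched 49 of 55383. The motif came in 8 forms. The form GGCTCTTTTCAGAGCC was carried by 26 genes, of the H1, H2A, H2B and H3 classes, and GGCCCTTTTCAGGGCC by 7 genes, all of them H4. A poly(A) signal (AATAAA or ATTAAA on the sense strand) stood within the last 50 bases of an annotated transcript in 17 of the 67 genes. Transcripts ended less than 100 bases after the stem-loop in 23 genes and ran on for at least 100 bases in another 23. For the remaining 21 no stem-loop was matched, and 15 of these have fewer than 16 annotated bases after the stop codon, so that the search had nothing to read there. The search for a poly(A) signal has the same limit, and 18 of the 21 are among the genes without a signal. Below, a gene without a poly(A) signal is one with none annotated, and a signal beyond its annotated end is not excluded.

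The genes with the highest levels were of the extended kind, and their stem-loops are shown beside those of genes annotated to end at the stem-loop, so that the shared element and the different distances to the transcript end can be read together. Stem-loops are in capitals, in sequence from GENCODE M21 transcripts, 5′ to 3′ on the gene's strand.
Hist1h4i stem-loop: ttaaaGGCCCTTTTTAGGGCCaccacaa
Hist1h1c stem-loop: caaaaGGCTCTTTTCAGAGCCaccactc
Hist3h2a stem-loop: ccaaaGGCTCTTTTCAGAGCCacccaca
Hist1h2bj stem-loop: ccaaaGGCTCTTTTCAGAGCCacgcaca
Hist1h3c stem-loop: aaaaaGGCTCTTTTAAGAGCCacctaag
The Hist1h4i element lies at chr13:22040966-22040981 on the minus strand, and the transcript runs on for 330 bases. In Hist1h1c it is at chr13:23739512-23739527 on the plus strand with 840 bases to follow, and in Hist3h2a at chr11:58955172-58955187 on the plus strand with 1643 bases to follow. By contrast, 23 bases follow the element of Hist1h2bj (chr13:22043638-22043653, plus strand), and 74 bases follow that of Hist1h3c (chr13:23745047-23745062, minus strand).

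The poly(A) signals at the ends of the extended transcripts, in capitals, were as follows. Hist2h2be is added because its transcript has a signal without a matched stem-loop.
Hist1h4i signal: ctgtttacATTAAAagtattct
Hist1h1c signal: atgcttctAATAAAaagcgttt
Hist3h2a signal: atatgcccAATAAAataagagt
Hist2h2be signal: ttattattAATAAAgttaccga
They lie at chr13:22040651-22040656 (minus strand), chr13:23740342-23740347 (plus strand), chr11:58956797-58956802 (plus strand) and chr3:96223717-96223722 (plus strand). Hist1h2bj and Hist1h3c held neither hexamer in the last 50 bases. A match of these letters is a description of the annotation and not evidence of where the transcripts in these libraries ended.

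In units of 1e6, libraries held 0.916 to 80.6 counts (median 12.8), and 27 to 2966 counts per library (median 392) fell on the histone genes. Smchd1 itself lay at 105 to 201 counts per 1e6 counts (CPM, with TMM-normalised library sizes) in Smchd1wt and at 64.5 to 113 CPM in Smchd1matΔ embryos, which still carry the paternal allele. All 12 tailbud markers were detected, with a summed level of 1001 to 2542 CPM. The libraries of Smchd1matΔ replicates 1 and 2 at 6 somites stood apart, with 2.77% and 1.82% of their counts on the ribosomal RNA locus annotated as Gm42418 and CT010467.1, against 0.176 to 1.28% in the other 35 libraries. They are called the rRNA-rich pair, and results that rest on them are given with and without them. The shallowest library, Smchd1matΔ replicate 3 at 6 somites, held only 27 histone counts, and a count of 0 there allows up to 3.27 CPM.

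Histone genes were low throughout. Of the 67 genes, 63 had at least 1 count in the 37 libraries, 41 had a median above 0 CPM and 5 a median above 1 CPM. The 4 genes without a count were Hist1h2aa, Hist1h2ao, Hist1h2br and Hist2h2aa2, for which a total of 540 times 1e6 counts allows up to 0.00556 CPM over all libraries. Between 9 and 57 of the genes were detected per library (median 39), and even the deepest library, with 80.6 times 1e6 counts, held counts for 57. Summed over all 67 genes, the level was 18.9 to 50.3 CPM (median 29.0) in the 35 libraries outside the rRNA-rich pair. For comparison, the 11 histone variants listed as replication-independent, most of whose messages carry ordinary poly(A) tails, summed to 2054 to 2849 CPM in the 37 libraries, led by H2afz (median 566 CPM), H3f3b (524 CPM) and H3f3a (311 CPM). H2afx (median 126 CPM), which is on this list, also has a histone stem-loop in an annotated transcript.

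Per kilobase of exon, the order of the histone genes was led by a few. Hist1h4i, an H4 gene at chr13:22040636-22041362, had a median of 6.21 CPM per kb over the 37 embryos. Hist1h1c, which encodes the linker histone H1.2 (chr13:23738808-23740367), followed with 3.32 CPM per kb. Hist3h2a, an H2A gene outside the large cluster (chr11:58954685-58956830), had 2.10 CPM per kb, and its exons overlap those of Trim17. These first 3 genes held 38.5 to 68.3% of all histone CPM in each of the 35 libraries. Next came Hist2h2bb, an H2B gene at chr3:96269752-96270132, with 1.50 CPM per kb, whose exons overlap the genes Gm20628 and Gm42743, and Hist1h2bc, an H2B gene at chr13:23684199-23692908, with 1.16 CPM per kb. Further H2A and H2B genes were Hist1h2ae (0.81 CPM per kb), Hist1h2bj (0.75), Hist3h2ba (0.72) and Hist1h2bk (0.65). The highest H3 gene, Hist1h3c, reached 0.69 CPM per kb. Ranges over embryos overlapped between all neighbours in this order, as the plot of levels shows, so that no neighbouring pair was separated beyond its spread.

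**Figure D1:**
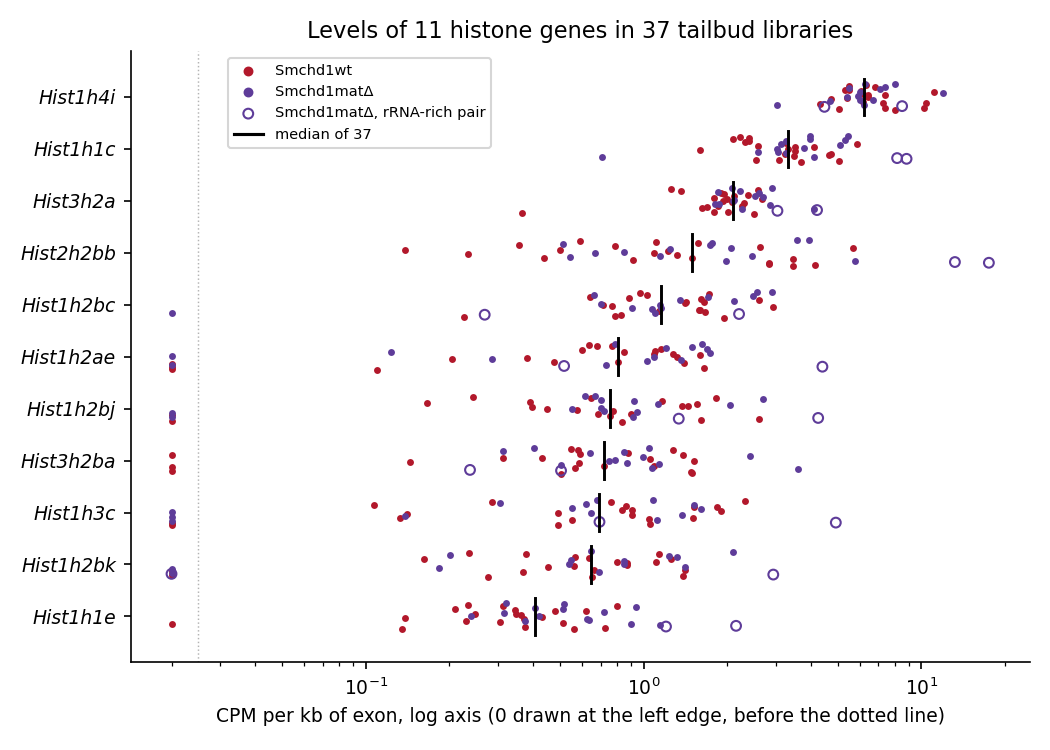
Levels of the 11 named histone genes in each of 37 libraries, in CPM per kb of exon on a log axis, with 0 drawn at the left edge. Points are embryos (red Smchd1wt, violet Smchd1matΔ, open violet circles the rRNA-rich pair) and black lines are medians; Hist1h4i leads with a median of 6.21 CPM per kb, and most genes below Hist1h2bc were at 0 in some libraries.

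The classes were unevenly represented. H1 genes gave 26.3% of all histone CPM, H2B 24.1%, H4 23.4%, H2A 19.8% and H3 only 6.43%. None of the 12 H3 genes passed the low-count filter of the fit over all stages, against 3 of 6 H1 genes, 1 of 18 H2A genes, 3 of 18 H2B genes and 1 of 13 H4 genes. Genes with an annotated poly(A) signal gave 61.5% of the summed level although they are 17 of the 67, and genes with an extended transcript gave 68.7%. The medians did not share this: 0.09 CPM per kb with a signal against 0.10 CPM per kb without one, so that the excess lay in a few genes. Identity between copies limits single genes, since 27 of 67 shared more than 50% of their 75-base stretches (the read length) with other genes. Genes with overlapping exons, such as Trim17 for Hist3h2a, were not counted as other genes. For Hist1h4i this share was 22.4%, for Hist1h1c 6.66%, for Hist3h2a 0.820% and for Hist1h2bk 72.6%.

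The spread between libraries was wide for the rRNA-rich pair and narrower elsewhere. In the pair the summed level was 106.6 CPM (95% Poisson interval 98.7 to 114.8, counting error only) and 70.5 CPM (66.1 to 75.1), both above the highest of the other 35 libraries at 50.3 CPM (46.7 to 54.1). Within the other 35, the shallowest library was compatible with 19.6 to 43.3 CPM from its 27 counts alone. Genes without an annotated poly(A) signal moved most in the pair. Their summed levels were 62.7 and 35.2 CPM against 5.07 to 21.8 CPM elsewhere, a ratio of means of 4.58. They include genes annotated only to near the stop codon, where a signal could not be looked for. Genes with a signal summed to 43.8 and 35.3 CPM against 13.6 to 28.5 CPM, a ratio of 2.05.

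The genes behaved unequally in these libraries. Hist1h1c had 13.8 and 12.7 CPM in the rRNA-rich pair and 1.10 to 9.11 CPM (median 5.09) in the other 35. Hist2h2bb had 6.66 and 5.03 CPM against 0.05 to 2.20 CPM (median 0.50). Hist1h4c, an H4 gene chosen after its values were seen, had 5.73 and 0.656 CPM against 0 to 0.596 CPM. For these genes both libraries of the pair lay above every other library, although replicate 2 did so only narrowly for Hist1h4c. Hist1h3c, with 3.10 and 0.437 CPM against 0 to 1.46 CPM, was high in replicate 1 alone. Hist1h4i, in contrast, had 3.25 and 6.19 CPM in the pair and 2.20 to 8.66 CPM elsewhere, so the gene with the highest level did not stand apart there. Hist1h2bc, with 0.310 and 2.55 CPM against 0 to 3.37 CPM, also lay within the range of the others.

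Over the 31 histone genes with at least 100 counts in all, the ratio of the mean in the pair to the mean of the other 35 libraries had a median of 3.16, beside 0.996 over the 17178 genes with as many counts. It was above 2 in 21 histone genes (67.7%), beside 5.95% of all those genes. Among genes without a poly(A) signal 16 of 22 were above 2 (median ratio 3.65), and among genes with a signal 5 of 9 (median 2.48). The highest ratio was that of Hist1h4c (25.2), and the highest among genes with a signal was that of Hist4h4 (12.2). Hist2h2bb had 8.26 and ranked below further H4 genes, among them Hist1h4f and Hist1h4j, the latter with a signal. In contrast, Hist1h4i had 0.98, Hist1h2bc 0.90 and Hist3h2ba 0.43. These ratios carry no test, because the 2 libraries were set apart by what they contain.

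**Figure D2:**
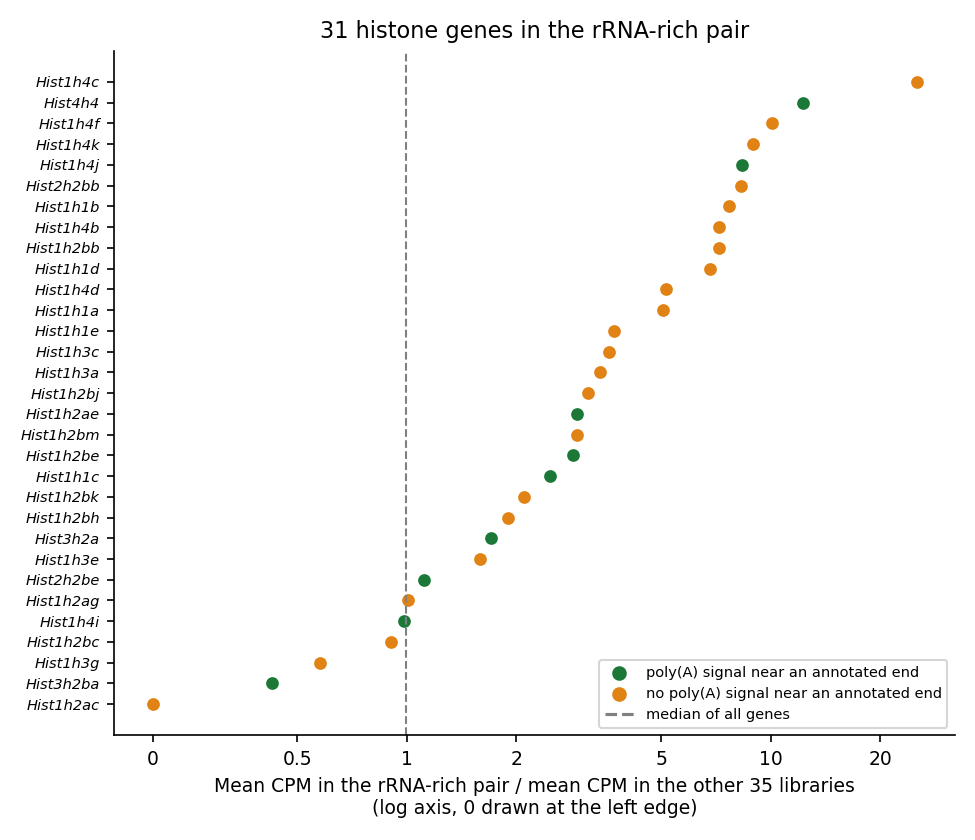
Mean CPM in the rRNA-rich pair divided by the mean CPM in the other 35 libraries for the 31 histone genes with at least 100 counts, on a log axis with 0 at the left edge; green marks genes with a poly(A) signal near an annotated end, orange genes without one, and the dashed line the median of all genes (0.996). Of the 31 genes, 21 lie above 2, and Hist1h4i, the gene with the highest level, lies at 0.98.

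Some other RNAs that lack a poly(A) tail were also high in these libraries. The 6 short RNAs of a fixed list that are in the count table (among them Rmrp and Rpph1, the RNAs of RNase MRP and RNase P) summed to 55.5 and 41.7 CPM in the pair against 0 to 15.6 CPM elsewhere. Rmrp and Rpph1 made up most of this sum, with means of 29.2 and 16.4 CPM in the pair. Scarna13 averaged 0.569 CPM there and Scarna6 was at 0. Markers of segmented somites, which the cut below the last somite should leave out, summed to 15.5 and 52.8 CPM in the pair against 0 to 14.5 CPM elsewhere. The part of these differences in the histone levels was not tested. Outside the pair, the summed histone level still followed the ribosomal RNA share, with Pearson's r = 0.63 and Spearman's rho = 0.59 over 35 libraries on the log2 scale, and r = 0.56 without the 2 libraries farthest from the median share. Within genotypes, r was 0.59 over the 21 Smchd1wt libraries and 0.73 over the 14 remaining Smchd1matΔ libraries. The sum of genes without a signal gave r = 0.70 over the 35 libraries and the sum of genes with a signal r = 0.45. These points share their library and its total, and no p is attached. Depth gave r = 0.17 over the same libraries.

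**Figure D3:**
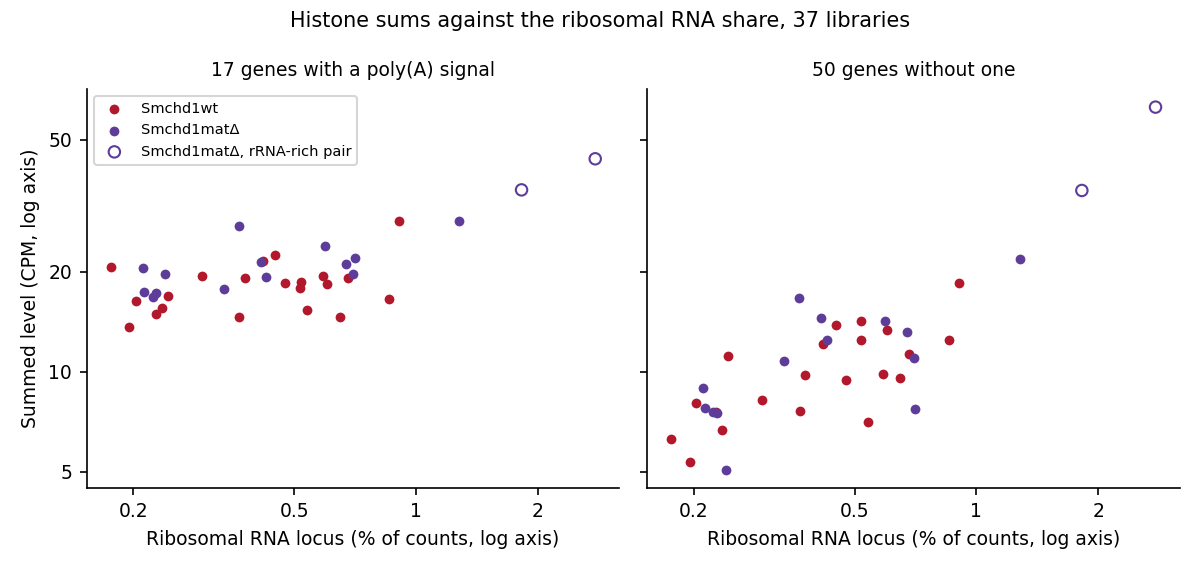
Summed level of the 17 histone genes with an annotated poly(A) signal (left) and of the 50 without one (right). Levels are plotted against the ribosomal RNA locus' share of counts, both on log axes. There is 1 point per library (red Smchd1wt, violet Smchd1matΔ, open circles the rRNA-rich pair). The right panel spans 5.07 to 62.7 CPM and the left 13.6 to 43.8 CPM, with r = 0.70 against 0.45 over the 35 libraries outside the pair.

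Of all 14725 other genes tested over all stages, those whose log2 CPM followed the summed histone level most closely over the 37 libraries were Gm26917 (r = 0.92), CT010467.1 (0.85) and Gm42418 (0.79), all annotated within chr17:39843013-39848827 at the ribosomal RNA locus. They were followed by Gm20628 (0.78), which shares exon sequence with Hist2h2bb, Lars2 (0.78), AY036118 (0.77), Tmcc1 (0.77), Sfn (0.76), Gm15564 (0.74) and Rpph1 (0.74). AY036118 (chr17:39847113-39848035) also lies at this locus, and neither it nor Gm26917 is counted in the ribosomal RNA share. Over the 35 libraries without the pair, Gm26917 still ranked first (r = 0.82) and CT010467.1 ranked 3 (0.73). Gm42418 fell to rank 63 (0.62), and the remaining named genes to ranks 55 to 216 (0.62 to 0.56). Lars2, at r = 0.58, was at the 99th percentile of all genes.

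Genes of the cell cycle and of histone RNA processing had high and even levels. The 38 genes of DNA replication and S phase summed to 5983 to 7287 CPM, a 1.22-fold range over the 37 libraries, led by Mcm6 (median 471 CPM), Mcm5 (411 CPM), both parts of the replicative helicase, and Rrm2 (410 CPM), a subunit of ribonucleotide reductase. Over the 35 libraries their sum and the histone sum had r = -0.28 and rho = -0.19, and r = -0.08 without the 2 libraries farthest from the median. The 18 factors of histone pre-mRNA processing and turnover summed to 1729 to 2266 CPM and were led by Ncbp1 (274 CPM) and Srrt (242 CPM), which act at the cap, and Sympk (201 CPM), a scaffold of the cleavage complex. Against the histone sum they gave r = -0.56 and rho = -0.47 over the 35 libraries, and r = -0.33 without the 2 farthest. The 20 mitosis genes, at 3537 to 5236 CPM, gave r = -0.54 and rho = -0.32, and r = -0.31 without the 2 farthest. For the histone variants r was 0.51 and rho 0.38, with r = 0.36 without the 2 farthest.

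By somite number, Smchd1wt embryos showed no common trend. At 6 somites the summed level was 33.7, 22.4, 31.7 and 30.5 CPM. At 7 somites it was 24.3, 27.0, 27.7 and 28.9 CPM, and at 8 somites 28.0, 18.9 and 29.3 CPM. The 9-somite embryos had 36.3, 28.0 and 24.4 CPM, so that the 3 middle stages overlapped. Values at 10 somites were 47.0, 32.8, 22.4 and 22.3 CPM, of which the first came from the library with the highest ribosomal RNA share among Smchd1wt (0.905%). At 11 somites they were 29.0, 30.3 and 22.2 CPM. Over the 21 embryos, the log2 sum and somite number had r = 0.01 and rho = -0.07.

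Gene by gene, the slope on somite number was fitted in the 21 Smchd1wt embryos with edgeR's quasi-likelihood test and sex as a covariate. Of the 13 histone genes that passed the low-count filter, 0 were called at an adjusted p under 0.05, beside 6.61% of all 15667 genes tested, and 0 had an unadjusted p under 0.05. Slopes ranged from -0.21 to 0.24 on the log2 scale per somite. The lowest adjusted p belonged to Hist1h1c, with a slope of -0.10 (SE 0.05, adjusted p = 0.297). Hist1h1c had 5.74, 7.85, 4.80 and 3.96 CPM at 6 somites and 3.28, 3.74 and 3.48 CPM at 11 somites. Slopes were -0.04 (SE 0.05) for Hist1h4i and 0.03 (SE 0.06) for Hist3h2a. At these standard errors a small drift per somite was not detectable.

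Among Smchd1matΔ embryos, the 2 highest sums lay at the first stage. At 6 somites the values were 106.6 and 70.5 CPM (the rRNA-rich pair), 29.7 and 34.4 CPM. They were 24.7, 24.8 and 28.5 CPM at 7 somites and 24.4 and 25.2 CPM at 8 somites. At 9 somites they were 44.2 and 30.7 CPM, at 10 somites 35.9, 29.5 and 38.2 CPM, and at 11 somites 50.3 and 31.7 CPM. Over all 16 embryos the log2 sum and somite number had r = -0.15 and rho = 0.06. Without the pair, the 14 values had r = 0.55 and rho = 0.53, with r = 0.44 after leaving out the 2 embryos farthest from the median stage, and the highest of them, at 11 somites, came from the library with the highest ribosomal RNA share outside the pair (1.28%).

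The slope fit in the 16 Smchd1matΔ embryos called 0 of 28 histone genes tested, beside 2.95% of 16222 genes. At an unadjusted p under 0.05, 1 rose and 1 fell, beside 9.91% and 7.22% of all genes. Without the rRNA-rich pair 17 genes passed the low-count filter, so 11 fewer than with it, and again 0 were called. The smallest p was that of Hist1h4b, an H4 gene (slope -0.61, SE 0.20, adjusted p = 0.101), with 1.39 and 1.60 CPM in the pair and 0 to 0.282 CPM in the other 14 embryos. Hist1h2bc gave a slope of 0.22 (SE 0.11, adjusted p = 0.292). The difference in slope between genotypes was tested over all 37 embryos and called 0 of 29 histone genes, beside 0% of 16729 genes. At an unadjusted p under 0.05, 4 of the 29 had a lower slope in Smchd1matΔ, beside 2.01% of all genes. Without the pair 0 of 20 did, and 1 had a higher slope.

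**Figure D4:**
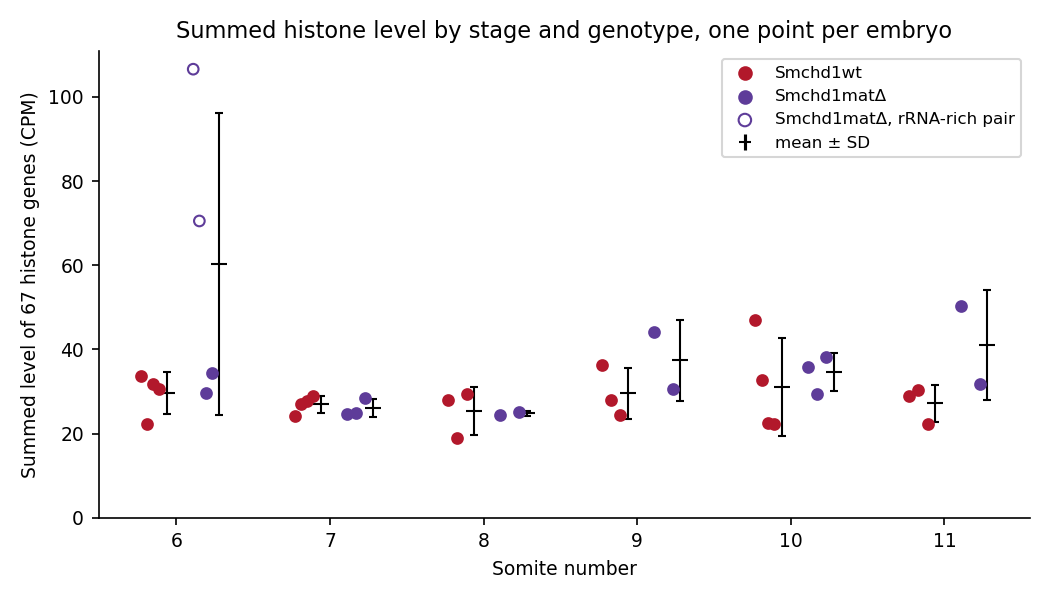
Summed CPM of the 67 histone genes by somite number, 1 point per embryo (red Smchd1wt, violet Smchd1matΔ, open circles the rRNA-rich pair), with the mean ± SD of each group beside its points. The pair at 106.6 and 70.5 CPM stands above all other libraries, and the genotypes overlap at every stage except 11 somites.

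Between genotypes, the summed level was 28.4 ± 6.12 CPM (SD, n = 21) in Smchd1wt and 39.3 ± 21.5 CPM (SD, n = 16) in Smchd1matΔ embryos. Without the pair the Smchd1matΔ value was 32.3 ± 7.72 CPM (SD, n = 14). A sum over these genes has no test here, since the group of genes was chosen with results of these data known. The stage means of Smchd1matΔ were 2.04 times those of Smchd1wt at 6 somites (1.08 times without the pair), 0.965 and 0.976 times at 7 and 8 somites, and 1.27, 1.11 and 1.51 times at 9, 10 and 11 somites. Values of the genotypes overlapped at 5 of 6 stages, all but 11 somites, where there were only 3 and 2 embryos.

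Over all 37 embryos, in a model with each somite stage and sex as covariates, 0 of the 8 histone genes tested differed between genotypes at an adjusted p under 0.05, beside 0.0136% of 14733 genes. The lowest adjusted p was 0.864, and DESeq2 also called 0 histone genes. At an unadjusted p under 0.05, 3 of the 8 were higher in Smchd1matΔ, beside 3.15% of all genes tested, and without the rRNA-rich pair 1 of 9. The median log2 fold change of the 8 was 0.37, beside 0.003 over all genes, and without the rRNA-rich pair it was 0.22 over 9 genes tested.

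Those 3 genes were 2 linker histone genes and an H2A gene. Hist1h1e, which encodes H1.4 (chr13:23620629-23622558), ranged from 0 to 1.55 CPM (median 0.67) in Smchd1wt and from 0.46 to 2.20 CPM (median 0.99) in the 14 Smchd1matΔ embryos outside the pair, with 2.32 and 4.15 CPM in the pair. The ranges overlapped, and the log2 fold change was 0.77 (SE 0.25, adjusted p = 0.864 by edgeR). Without the pair it was 0.59 (SE 0.25, adjusted p = 0.9996 by edgeR), and the exons of this gene overlap those of Hist1h2be. Hist3h2a had 0.785 to 5.74 CPM (median 4.16) in Smchd1wt and 3.88 to 8.81 CPM (median 4.81) in the 14 Smchd1matΔ embryos. It gave 0.36 on the log2 scale (SE 0.15, adjusted p = 0.864), or 0.26 (SE 0.14) without the pair. Hist1h1c had 2.49 to 9.11 CPM (median 5.09) against 1.10 to 8.48 CPM (median 5.49), with 0.38 (SE 0.17, adjusted p = 0.864) and 0.22 (SE 0.16) without the pair. Of these range ends, 2.20 CPM for Hist1h1e, 8.81 CPM for Hist3h2a and 1.10 CPM for Hist1h1c came from the shallowest library. They rest on 2, 8 and 1 counts there.

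The remaining 5 tested genes did not pass an unadjusted p of 0.05. Hist1h4i had medians of 4.60 CPM in Smchd1wt and 4.44 CPM in Smchd1matΔ and a log2 fold change of -0.01 (SE 0.13). Hist1h2bc gave 0.14 (SE 0.24) and Hist2h2be, an H2B gene added after its values were seen, 0.11 (SE 0.20). Larger values with larger errors were those of Hist1h1d, which encodes H1.3, at 0.55 (SE 0.34), or 0.11 (SE 0.29) without the pair, and of Hist1h2be, an H2B gene, at 0.46 (SE 0.33), or 0.33 (SE 0.30) without the pair.

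**Figure D5:**
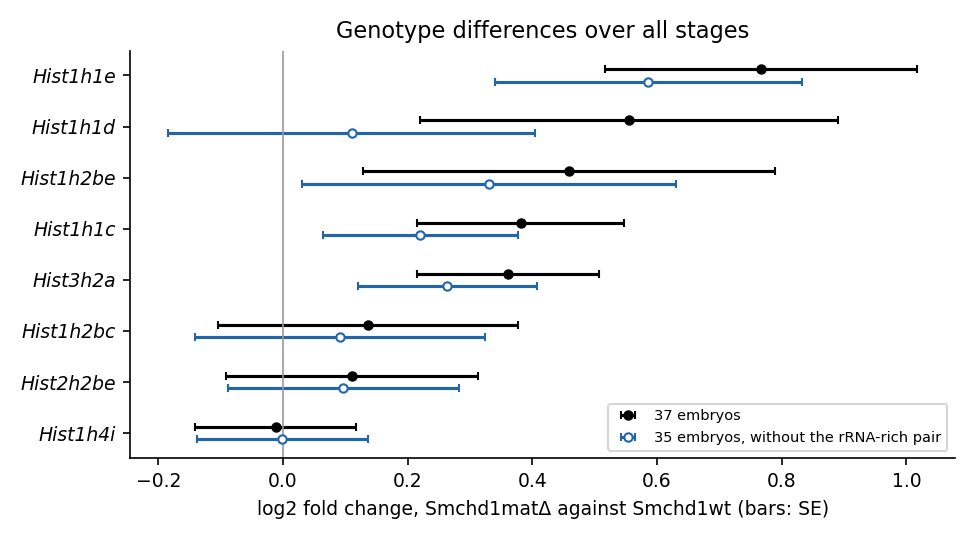
Log2 fold change (Smchd1matΔ against Smchd1wt) over all stages for the 8 histone genes tested, with SE bars, in 37 embryos (black) and in 35 embryos without the rRNA-rich pair (blue, open). Hist1h1e is farthest from 0 in both (0.77 and 0.59), Hist1h4i lies at 0, and none passed the adjusted threshold.

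Stage by stage, 0 histone genes were called at 6, 7, 8, 9, 10 or 11 somites, where 7, 7, 7, 11, 11 and 14 genes were tested by edgeR, beside 0% of the 14191 to 15332 genes tested at each stage. An unadjusted p under 0.05 was found for 1 gene at 7 somites, which was higher (beside 2.05% of all genes), and for 0 genes at 8, 9 and 10 somites, and DESeq2 also called 0 at each stage. At 6 somites 3 of 7 had an unadjusted p under 0.05 and were higher in Smchd1matΔ, beside 3.02% of all genes: Hist1h1e (log2 fold change 1.57, SE 0.62), Hist2h2bb (1.58, SE 0.65) and Hist1h1d (1.66, SE 0.76), each with an adjusted p of 0.862. Hist2h2bb had 1.32, 1.57, 1.08 and 1.08 CPM in Smchd1wt against 6.66, 5.03, 2.20 and 0.752 CPM in Smchd1matΔ. Its 2 highest values were the rRNA-rich pair, and the 2.20 CPM of the third rests on 2 counts in the shallowest library. Without the pair the log2 fold change of Hist2h2bb was -0.26 (SE 0.94), and the median over the histone genes tested went from 0.97 to -0.15.

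At 11 somites 3 of 14 genes were higher and 1 lower at an unadjusted p under 0.05, beside 4.03% higher and 4.62% lower of all 15332 genes tested. Hist1h1c had 3.28, 3.74 and 3.48 CPM in Smchd1wt and 8.48 and 6.18 CPM in Smchd1matΔ (log2 fold change 1.05, SE 0.26, adjusted p = 0.567 by edgeR). Hist1h2bc had 1.19, 1.99 and 1.12 CPM against 3.35 and 2.96 CPM (1.10, SE 0.41, adjusted p = 0.567 by edgeR). Hist2h2bb gave 1.69 (SE 0.60), with 0.596, 0.422 and 0.224 CPM against 1.50 and 1.36 CPM. Hist1h2bm, an H2B gene, lay the other way, with 0.716, 0.784 and 0.785 CPM against 0.0712 and 0.309 CPM (-1.92, SE 0.83). A gene can pass the low-count filter through the libraries of a single genotype. Hist2h2bb and Hist1h2bm, low in the other genotype, may have been tested only for being high in that genotype, so the counts of genes higher and lower are not support for a difference. The ribosomal RNA share was 0.856, 0.517 and 0.366% in these Smchd1wt libraries and 1.28 and 0.427% in the Smchd1matΔ libraries. The 11 erythroid markers summed to 916, 1201 and 601 CPM in Smchd1wt and to 4262 and 1811 CPM in Smchd1matΔ (median log2 fold change 1.75, 0 called). The 11 endoderm markers summed to 347, 28.2 and 91.3 CPM against 45.2 and 556 CPM (median 0.97, 0 called). The part of these in the histone differences was not tested.

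In the windows of stages, 0 of 7 histone genes were called at 6 to 8 somites, beside 0.0069% of 14495 genes, and 0 of 11 at 9 to 11 somites, beside 0.00671% of 14909 genes. Each window had 1 histone gene higher at an unadjusted p under 0.05, beside 3.85% of all genes in the earlier and 1.13% in the later window, and without the rRNA-rich pair the earlier window had 0 of 8. In the earlier window it was Hist1h1e (log2 fold change 1.09, SE 0.39, adjusted p = 0.477 by edgeR), and in the later one Hist1h1c (0.48, SE 0.18, adjusted p = 0.9997 by edgeR).

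Lists of genes around the histone genes held no call between genotypes. In each genotype fit by edgeR, 0 of 11 replication-independent variants, 0 of 18 processing and turnover factors, 0 of 38 S phase genes and 0 of 20 mitosis genes were called. Beside this, 0 to 0.0136% of all genes were called in these fits. Over all stages their median log2 fold changes were 0.06, 0.009, -0.02 and 0.02, beside 0.003 for all genes. On somite number, 1 of 11 variants rose in Smchd1matΔ embryos, beside 2.95% of all genes called in that fit: H1f0, the linker histone of cells that leave the cycle, with a slope of 0.11 (SE 0.02, adjusted p = 0.0035). In Smchd1wt embryos 1 of 18 processing factors fell, Mif4gd, a partner of SLBP in translation (slope -0.10, SE 0.03, adjusted p = 0.0316), and 1 of 20 mitosis genes rose, Ube2c (0.05, SE 0.02, adjusted p = 0.0373), shares close to the 6.61% of all genes called there. Of the S phase genes 0 of 38 were called in either slope fit. For the RNAs without a poly(A) tail, 9 of the list are in the table and 5 were tested, of which 0 were called. Their median log2 fold change was 0.74 over all stages, beside 0.003 for all genes. By stage it was 2.49, -0.03, -0.20, 0.71, -0.22 and 0.53 at 6, 7, 8, 9, 10 and 11 somites. The list holds Gm42418 and CT010467.1, whose share set the rRNA-rich pair apart, and both libraries of the pair are Smchd1matΔ at 6 somites. The median is therefore not read as a genotype difference. The other tissues a tailbud cut can hold varied widely between embryos, with summed markers of 11.3 to 4262 CPM for erythroid cells, 28.2 to 4445 CPM for endoderm and 173 to 397 CPM for endothelium, and in the fit over all stages 0 markers of these lists were called between genotypes. On somite number, 3 of 6 endothelial markers (Emcn, Tie1 and Cdh5) and 1 of 11 erythroid markers (Hbb-y) rose in both genotypes, with slopes of 0.71 for Emcn and 0.98 for Hbb-y in Smchd1wt embryos. Of the tailbud markers Nkx1-2 fell in both genotypes and Rspo3 rose in Smchd1matΔ embryos, and of the endoderm markers Apob, Ttr and Sox17 fell and Foxa1 rose in Smchd1wt embryos.

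The histone genes tested were not much more variable than genes of similar level. The biological coefficient of variation in the fit over all stages was 0.222 to 0.578 (median 0.352) for the 8 genes, beside a median of 0.320 for 3677 other genes in the same range of log2 CPM and of 0.162 for all 14733 genes tested.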

How the data were processed

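As the labels and the paper's methods state, the authors made poly(A) libraries with an unstranded or a stranded TruSeq kit (which kit made which library is not given in the sources used here), sequenced 75-base single-end reads, trimmed them with Trim Galore 0.4.4, mapped them to GRCm38.p6 with HISAT2 2.0.5 and counted genes in SeqMonk. Raw counts of reads per gene, as deposited by the authors, were the input. The table has 35591 rows, of which 49 with a repeated identifier were dropped, and no column of values was left unused. The deposited log2 RPKM values of Hox genes and the authors' table of p-values and fold changes of their own comparisons were not used. Counting is not stated to use strand, so overlapping genes cannot be told apart.

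Counts were tested with edgeR 4.0.16 (quasi-likelihood, R 4.3.3, filterByExpr with a minimum count of 10, TMM, Benjamini-Hochberg adjustment over all genes tested, threshold 0.05, two-sided), after tests on simulated data. The low-count filter can be passed through a single group of libraries, which favours genes high in that group among those tested. Standard errors are the log2 change divided by the square root of F. Single stages were fitted on genotype alone, windows and all stages with each stage and sex as covariates, and slopes with somite number as a number and sex. DESeq2 1.42.0, TMM against size factors, no filter, other covariates and leaving out libraries were alternatives, as were fits without the rRNA-rich pair at 6 somites and in the slope fits, which were chosen after seeing the data. Embryos are separate animals. Replicate numbers were not treated as pairs in the main fits.

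The genes and lists were chosen with earlier results of these data known. Named genes were those called in any fit, the 10 with the highest median CPM per kb, the highest of each class and the 3 with the smallest p over all stages, and of other genes the 10 most like the histone sum, list genes past the test and the 3 highest of a list. Sequences come from GENCODE M21 transcripts, and all 67 genes matched RefSeq by symbol. Depth was 0.916 to 80.6 times 1e6 counts. Reads carry no molecular identifiers, so Poisson intervals and the floor of 3 counts cover counting error only.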

Additional observations from a re-analysis of the deposited data

Results flagged for a closer look

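Of 68 sets of 4 embryos tested for a value far from the rest (Dixon's test), 6 stood apart. The test's rate of about 1 in 20 holds for independent, normally distributed values. These sets include low counts with zeros, and class sums that contain the named genes, so the number that stood apart is not compared with that rate. At 6 somites, the summed H4 level of Smchd1wt replicate 2 was 4.97 CPM against 7.86 to 8.17 CPM in the others, and Hist1h2ae was at 1.16 CPM in Smchd1wt replicate 3 against 0 to 0.0775 CPM and at 3.10 CPM in Smchd1matΔ replicate 1, a library of the rRNA-rich pair, against 0 to 0.517 CPM. At 7 somites, the summed H3 level of Smchd1wt replicate 4 was 2.60 CPM against 0.836 to 1.05 CPM, and Hist1h2bc in Smchd1wt replicate 2 was 1.32 CPM against 1.84 to 1.92 CPM. At 10 somites, Hist1h4i in Smchd1wt replicate 1, with the highest ribosomal RNA share of its genotype, was 8.03 CPM against 3.86 to 4.40 CPM. Many of these rest on few counts, and none was tested for a cause.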

How the results depend on the processing

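With 0 histone genes called in each fit as reported, 0 were also called with DESeq2, under other scalings and covariates, without the rRNA-rich pair or the shallow libraries, and without each embryo in turn (0 to 0 in every fit), except in the slope over Smchd1matΔ embryos: 1 gene was called without the low-count filter (Hist1h4n, slope -1.13, adjusted p = 0.0495 by edgeR) and 1 without sex in the model (Hist1h4b, -0.64, adjusted p = 0.0324 by edgeR). Both genes were highest in the rRNA-rich pair at 6 somites. Hist1h4n had 5 and 4 counts there and 0 to 2 counts in the other Smchd1matΔ libraries. Hist1h4b reached 1.60 CPM with the pair and at most 0.282 CPM in the 14 Smchd1matΔ embryos outside it. These 2 settings were not fitted without the pair, so the calls are not read as a trend with stage. The cause was not tested. The log2 fold change of Hist1h4i over all stages changed sign with DESeq2 (0.000615), in females alone (0.038), without the 2 shallowest libraries (0.035) and over leaving out single embryos (-0.0938 to 0.0306), all within its SE of 0. With a replicate block, 0 histone genes were called in every genotype fit. Over 16 pairs of embryos with the same number and stage, deviations from the group means had r from -0.29 to 0.65, with 4 above 0.1. The pairs at 9 somites gave 0.65 and 0.40. At stages with 3 or more pairs, 1 of 10 Smchd1matΔ embryos correlated best with its own number. Whether the numbers mark pairs is not settled by these values. Median log2 changes of the tested histone genes that moved were 0.60 without the filter over all stages, 0.65 without it at 6 to 8 somites and -0.15 without the rRNA-rich pair at 6 somites. Low counts limit what could be seen, since 8 of 67 genes passed the filter over all stages.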
